A study of Mus musculus with 19 samples.

Results

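Whole spinal cord was compared with motor neurons grown from stem cells, using 7 of the 19 libraries of a mouse RNA sequencing series on the microRNA miR-146a. The libraries were assigned to the 2 groups by label. They are 4 libraries from snap-frozen spinal cords of animals with the genotype label miR-146a WT, and 3 libraries from motor neuron cultures titled as control LNA replicates 1 to 3. The cultures derive from RW.4, a mouse embryonic stem cell line labelled wild type, through a differentiation with retinoic acid and the Hedgehog agonist SAG. They were then transfected by lipofection with 10 nM of a control LNA, a locked nucleic acid oligonucleotide, for 72 h. The labels list no treatment for the cords. The cord titles end in LS, which the labels do not explain. The labels give no age, sex or batch, and they leave unsaid whether the libraries within a group are separate animals or separate differentiations. The cultures are 1 cell line, and p-values here measure only the spread between these libraries.

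Spinal motor neurons are the cholinergic cells whose axons leave the cord and drive muscle. In the embryo, retinoic acid and Sonic hedgehog instruct progenitors that switch on Mnx1 and Isl1, and the newborn neurons then extend axons, form synapses and exchange embryonic channel, receptor and cytoskeletal genes for adult ones. A whole cord holds few motor neurons among inhibitory and excitatory interneurons, astrocytes, oligodendrocytes with their myelin, microglia, vessels, ependyma and meninges. In bulk RNA, fewer cells of a type and less RNA of a gene per cell cannot be told apart. Material, culture, transfection and any difference in handling before sequencing all coincide with the same grouping, so they cannot be told apart either.

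Total counts ran from 31671608 to 36946892 in the 4 cords and from 53082991 to 60516445 in the 3 cultures, so 3 counts over a group are 0.0233 normalised CPM (counts scaled to library size, after TMM scaling) in cords and 0.0181 in cultures. These floors cover counting error only. Of 21974 protein-coding genes, 15563 passed the filter on low counts. Some libraries stand apart. Cord 1 had much RNA of the Y-linked gene Ddx3y, at 50.5 normalised CPM against 0 in each of cords 2 to 4, and it had 1.48 CPM of Xist, the RNA that silences an X chromosome, against 229 to 270 in the other cords. All 3 cultures had 0 counts of Ddx3y and at most 0.170 CPM of Xist. Cord 4 alone had much RNA of Prx, the periaxin of Schwann cells, at 28.6 normalised CPM against 0.435 to 0.886 in the other cords. Cords 3 and 4 had more RNA of the most caudal Hox genes than cords 1 and 2, as given with those genes.

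The materials differed in most genes. Of 15563 genes tested with edgeR, 7024 were higher in cord and 6943 higher in culture at an adjusted p below 0.05, or 89.7% called (45.1% higher in cord, 44.6% higher in culture). In a test against a fold of 2, 8394 genes passed (53.9%), 4808 of them higher in cord (30.9%) and 3586 higher in culture (23.0%). The median log2 fold change of cord over culture was 0.01, with quartiles of −1.04 and 1.79. Large differences lay mostly on the cord side, where 2544 tested genes, called or not, had an estimated fold change of at least 8. On the culture side there were 541. A call by itself therefore says little here, and lists are read below by their direction, their size and the background of 45.1% and 44.6%. With genes split by span into 5 equal bins, the median was 0.15 in the shortest and 0.48 in the longest, and lay between −0.24 and −0.08 in the bins between them.

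Among genes with the highest TPM that were at least 8 times higher in cord, Mbp, the myelin basic protein, stood at 8895, 9645, 6955 and 7298 normalised CPM in cords 1 to 4 and at 37.2, 33.4 and 32.2 in cultures 1 to 3. Its log2 fold change was 7.90 (SE 0.16, adjusted p = 2.81e-11). Sparcl1, a matrix protein secreted by astrocytes, had 8.55 (SE 0.13), Apoe, the lipid carrier made by glia, 8.40 (SE 0.08), Aldoc, the aldolase of astrocytes, 7.75 (SE 0.08), and Glul, glutamine synthetase, 6.59 (SE 0.08). Fth1, the ferritin heavy chain, had 4.13 (SE 0.10), and Eef1a2, the translation factor of mature neurons and muscle, 4.43 (SE 0.05). Among those at least 8 times higher in culture, Gap43, a growth cone protein (chromosome 16, 42248442 to 42340651, GRCm38), stood at 1684, 1753 and 1849 in cultures and at 96.7, 102, 106 and 105 in cords, −4.11 on the log2 scale (SE 0.05, adjusted p = 8.61e-17). Tuba1a, the alpha tubulin of young neurons, had −3.03 (SE 0.07), Prph, peripherin, −4.15 (SE 0.06), Marcksl1, an actin regulator of growing neurites, −4.25 (SE 0.07), Stmn4, a microtubule destabiliser, −3.11 (SE 0.07), Tmsb10, an actin monomer binder, −3.60 (SE 0.07), and Cartpt, a neuropeptide precursor, −5.84 (SE 0.18). Nnat, an imprinted gene of developing neurons, had −3.91 (SE 0.13), Gpx3, a secreted glutathione peroxidase, −5.0 (SE 0.22), and Jpt1 −4.99 (SE 0.06). In each of these the 4 cords and the 3 cultures did not overlap, as in 88.9% of all tested genes.

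Markers of astrocytes, oligodendrocytes and microglia were far higher in cord, and those of Schwann cells were mixed. All 24 astrocyte genes, all 26 oligodendrocyte and myelin genes and all 25 microglia genes were called higher in cord, against a background of 45.1%, with median log2 fold changes of 8.37, 8.17 and 8.99 against 0.01 over all genes. The microglia median was 8.08 when the 8 members with 0 counts in culture were set at the floor. Gfap, the intermediate filament of astrocytes (chromosome 11, 102887336 to 102900912), stood at 1805, 2123, 1374 and 1283 normalised CPM in cords and at 0.0171, 0.0925 and 0.0578 in cultures, where it had 9 counts in all. Aqp4, the water channel of astrocyte endfeet, had 396, 406, 415 and 287 in cords and 0 counts in the cultures, at least 20823-fold higher against 3 counts over the culture group. Slc1a2, the glial glutamate transporter, was detected in both, at 10.5, 10.3 and 10.3 in cultures and 2925, 3408, 2811 and 2539 in cords. Mal, a myelin proteolipid, also had 0 counts in culture, at least 14306-fold higher in cord, and Mog, a protein of the outer myelin surface, had 3.31, 3.42 and 3.24 in cultures against 108 to 142 in cords. For microglia, the fractalkine receptor Cx3cr1 stood at 50.1, 53.4, 42.6 and 42.9 in cords and at 0, 0.0555 and 0.0385 in cultures, and complement C1qb had 0 counts in culture, at least 2569-fold higher in cord. The cultures were not empty of these lists: the astrocyte genes summed to 730 to 788 normalised CPM in cultures and 20851 to 23261 in cords, the oligodendrocyte genes to 250.2 to 275 and 17613 to 23609, and the microglia genes to 38.3 to 43.4 and 636 to 747.

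**Figure D1:**
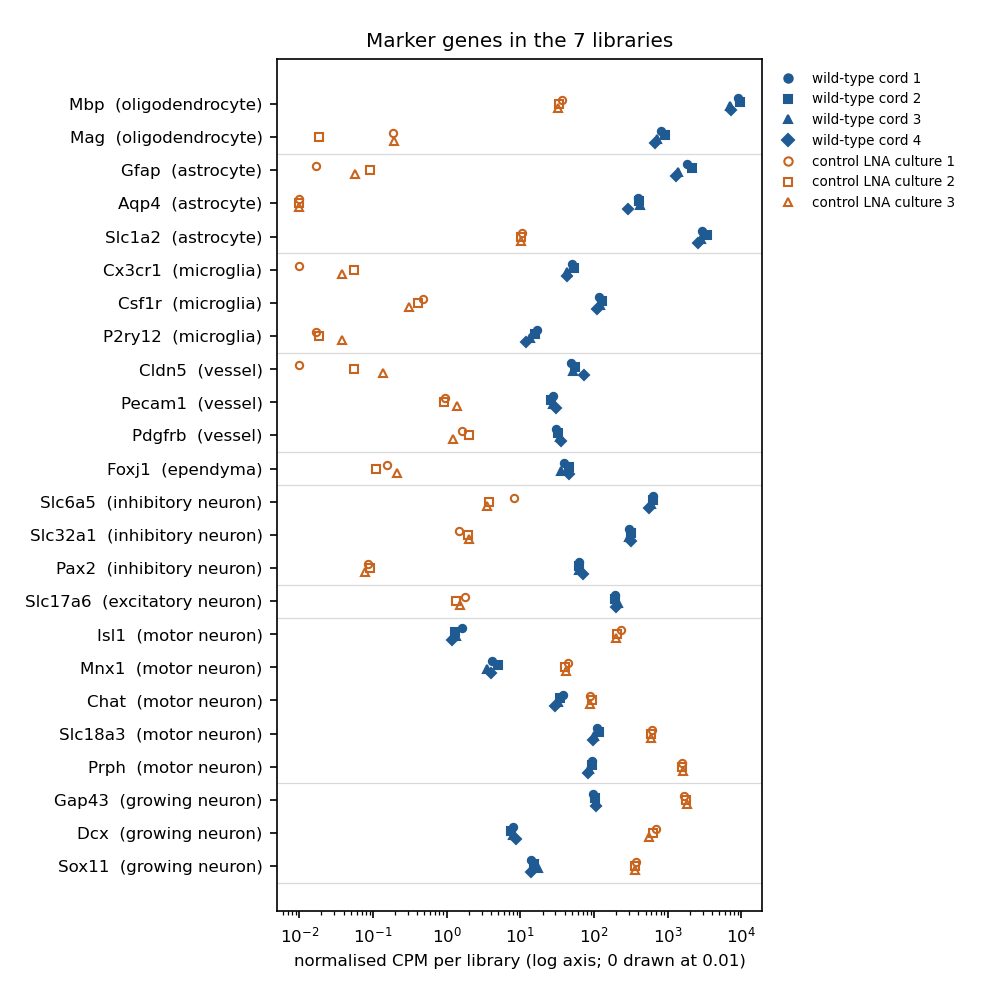
Normalised CPM (log axis, 0 drawn at 0.01) of 24 marker genes in each of the 7 libraries, with filled blue symbols for the 4 wild-type cords and open orange symbols for the 3 control LNA cultures. The plotted markers of glia, vessels, ependyma and interneurons lie to the right in cords, and those of motor neurons and growing neurons in cultures. Other genes of the motor neuron lists, not plotted, were higher in cord, among them 7 of 18 genes listed as transcription factors and 8 of 18 mature motor neuron genes.

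Precursor, vessel and covering cells showed the same direction with smaller medians. Oligodendrocyte precursor genes were higher in cord in 13 of 14 (median 6.12). Gpr17, a receptor of committed precursors, stood at 32.9 ± 4.14 normalised CPM in cords (mean and SD, n = 4) and had 1 count in the cultures together, whereas Pdgfra, the receptor for platelet-derived growth factor A, stood at 42.1 to 48.4 against 5.55 to 7.16. Pericyte and smooth muscle genes were higher in 14 of 14 (median 5.26), fibroblast and meningeal genes in 17 of 19 (median 4.32), endothelial genes in 16 of 20 (median 3.48), and ependymal and motile cilia genes in 13 of 15 tested of 18 (median 4.28). Cldn5, the tight junction protein of brain endothelium, had a log2 fold change of 9.81 (SE 0.33), Pdgfrb, the receptor of pericytes, 4.33 (SE 0.14), the collagen Col1a1 3.92 (SE 0.34, not called in a fit of all 19 libraries, adjusted p = 0.0605) and Foxj1, the regulator of motile cilia, 8.02 (SE 0.18). Dcn, a proteoglycan of meninges and nerve sheath, was at 12.8 in cord 4 and 5.36 to 5.84 in cords 1 to 3, the same library that held Prx. Prx itself was not called (log2 3.68, SE 1.95, adjusted p = 0.123). Of 12 Schwann cell genes, 10 were tested, 7 were higher in cord and 2 in culture (median 3.38), and their sums overlapped, at 346 to 540 normalised CPM in cords and 384 to 446 in cultures. Of 9 red blood cell genes, 5 were tested and all 5 were higher in cord (median 9.37, or 8.19 with members at 0 set at the floor). Hbb-bs, adult beta globin, stood at 6.86 to 13.8 in cords and had 2 counts in culture.

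Some genes of the motor neuron programme were higher in culture and others in cord. Of 18 genes listed as motor neuron transcription factors, 11 were higher in culture and 7 in cord, against backgrounds of 44.6% and 45.1%, with a median of −0.68. The list includes Aldh1a2, an enzyme that also stands in the fibroblast and meningeal list. Summed over the list, cultures had 681 to 727 normalised CPM and cords 409 to 476. Isl1, a LIM homeodomain factor that specifies motor neurons (chromosome 13, 116298281 to 116309689), stood at 232, 208 and 197 normalised CPM in cultures and at 1.61, 1.31, 1.35 and 1.19 in cords, −7.29 on the log2 scale (SE 0.09, adjusted p = 8.29e-17). Mnx1, the homeobox gene that marks motor neurons (chromosome 5, 29473034 to 29478470), stood at 44.4, 39.8 and 41.1 in cultures and 4.10, 4.96, 3.58 and 3.94 in cords (−3.33, SE 0.10), and Isl2 had −2.76 (SE 0.11). The 7 members higher in cord all passed the test against a fold of 2, as did 6 of the 11 higher in culture. Over all tested genes, 30.9% passed it toward cord and 23.0% toward culture. Ebf2 had the largest difference toward cord, at 19.7, 17.9, 20.9 and 20.8 against 0.153, 0 and 0.0964 in cultures (7.82, SE 0.29). Lhx3, which marks the medial motor column and the embryonic ground state, was also higher in cord, at 3.23, 2.70, 2.76 and 3.41 in cords and 1.45, 0.666 and 1.16 in cultures (1.47, SE 0.27, adjusted p = 0.000143). Both groups were low for Lhx3, and no library of one group reached the other.

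Of 8 genes of acetylcholine synthesis, transport and breakdown, 5 were higher in culture and 3 in cord (median −1.16). Chat, choline acetyltransferase (chromosome 14, 32408203 to 32465989), stood at 89.2, 93.5 and 88.5 normalised CPM in cultures and at 37.4, 34.3, 32.9 and 29.2 in cords (−1.44, SE 0.07). Slc18a3, the vesicular acetylcholine transporter, had −2.52 (SE 0.06), Slc5a7, the choline transporter, −2.87 (SE 0.08), and Ache, acetylcholinesterase, −0.89 (SE 0.05). Colq, the collagen tail that anchors acetylcholinesterase, had the largest difference toward cord, at 3.46, 4.96, 4.59 and 4.15 against 0.426, 0.0370 and 0.0964 in cultures (4.46, SE 0.48). Of 18 mature motor neuron genes, 8 were higher in each material and the median was 0.23. Chodl, a marker of fast motor neurons, stood at 39.7, 37.4, 28.2 and 20.2 in cords and at 1.07, 1.44 and 0.944 in cultures (4.76, SE 0.29), and Mmp9, a protease of vulnerable fast motor neurons, had 6.0 (SE 0.33). Calca, the precursor of calcitonin gene-related peptide, was higher in culture (−1.65, SE 0.13).

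The 5 neuronal intermediate filaments separated by protein. Nefh, the heavy neurofilament of large mature axons, stood at 1467, 1410, 1196 and 1089 normalised CPM in cords and at 129, 128 and 131 in cultures (3.32, SE 0.10). Nefl, the light subunit, had −1.72 (SE 0.08), Ina, alpha-internexin, −1.49 (SE 0.04), and Prph −4.15. Nefm, the medium subunit, stood at 1954 to 2672 in cords and 2290 to 2674 in cultures and was not called (−0.08, SE 0.09, adjusted p = 0.402). The filament genes therefore ranged from higher in cord to higher in culture, with the groups overlapping for Nefm.

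Of 30 genes of immature neurons and axon growth, 29 were tested, 22 were higher in culture and 5 in cord, against backgrounds of 44.6% and 45.1%, with a median of −2.06. Dcx, doublecortin of migrating neurons, stood at 691, 629 and 559 normalised CPM in cultures and at 7.88, 7.43, 8.04 and 8.66 in cords (−6.29, SE 0.08). Stmn2, a stathmin of growing and regenerating axons, had −2.26 (SE 0.05) and Tubb3, the neuronal beta tubulin, −0.80 (SE 0.06). Axon guidance genes were mixed, with 23 of 36 higher in culture and 12 in cord (median −0.64). The ephrin receptor Epha3 had the largest difference toward culture (−4.62) and the netrin receptor Unc5b the largest toward cord (7.46). Dcc, the attractive netrin receptor, had −1.27 (SE 0.06), Robo1 had 0.62 (SE 0.07) and Robo3, the regulator of midline crossing, 4.41 (SE 0.37).

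Genes of other spinal neurons were higher in cord. Of 26 spinal interneuron transcription factors, 25 were tested, and 23 were higher in cord and 1 in culture (median 4.05). Pax2, of inhibitory interneurons, stood at 62.2, 62.3, 63.0 and 71.4 normalised CPM in cords and at 0.0853, 0.0925 and 0.0771 in cultures (9.52, SE 0.14). En1, of V1 interneurons, had 3.97 (SE 0.30). The exception was Lhx1, shared by lateral motor column neurons and several interneurons, at 45.1, 39.0 and 36.2 in cultures and 7.81, 7.84, 10.7 and 9.72 in cords (−2.15, SE 0.11). All 6 genes of GABA and glycine release were higher in cord (median 5.29). Slc6a5, the neuronal glycine transporter, stood at 627, 623, 591 and 563 in cords and at 8.08, 3.74 and 3.51 in cultures. Gad2, which makes GABA, had the smallest difference of the 6, at 110 to 141 against 16.8 to 21.4 (2.72, SE 0.11). Slc17a6, the vesicular glutamate transporter of most spinal excitatory neurons, had 7.0 (SE 0.09). Its relative Slc17a7 separated the cords themselves, at 10.8 and 7.26 in cords 1 and 2 and 0.853 and 1.13 in cords 3 and 4 (3.18, SE 1.08, adjusted p = 0.0287). The call of Slc17a7 was lost without cord 2 (adjusted p = 0.0564) and without any 1 of the cultures (0.0865 to 0.107), and also with limma (0.157), in a fit of all 19 libraries (0.0602) and with no filter on low counts (0.0509). Among 15 neuropeptides, 11 were higher in cord and 4 in culture, and Tac2, the neurokinin B precursor, at 38.6 to 41.2 in cords, had 0 counts in culture, at least 2209-fold higher in cord.

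**Figure D2:**
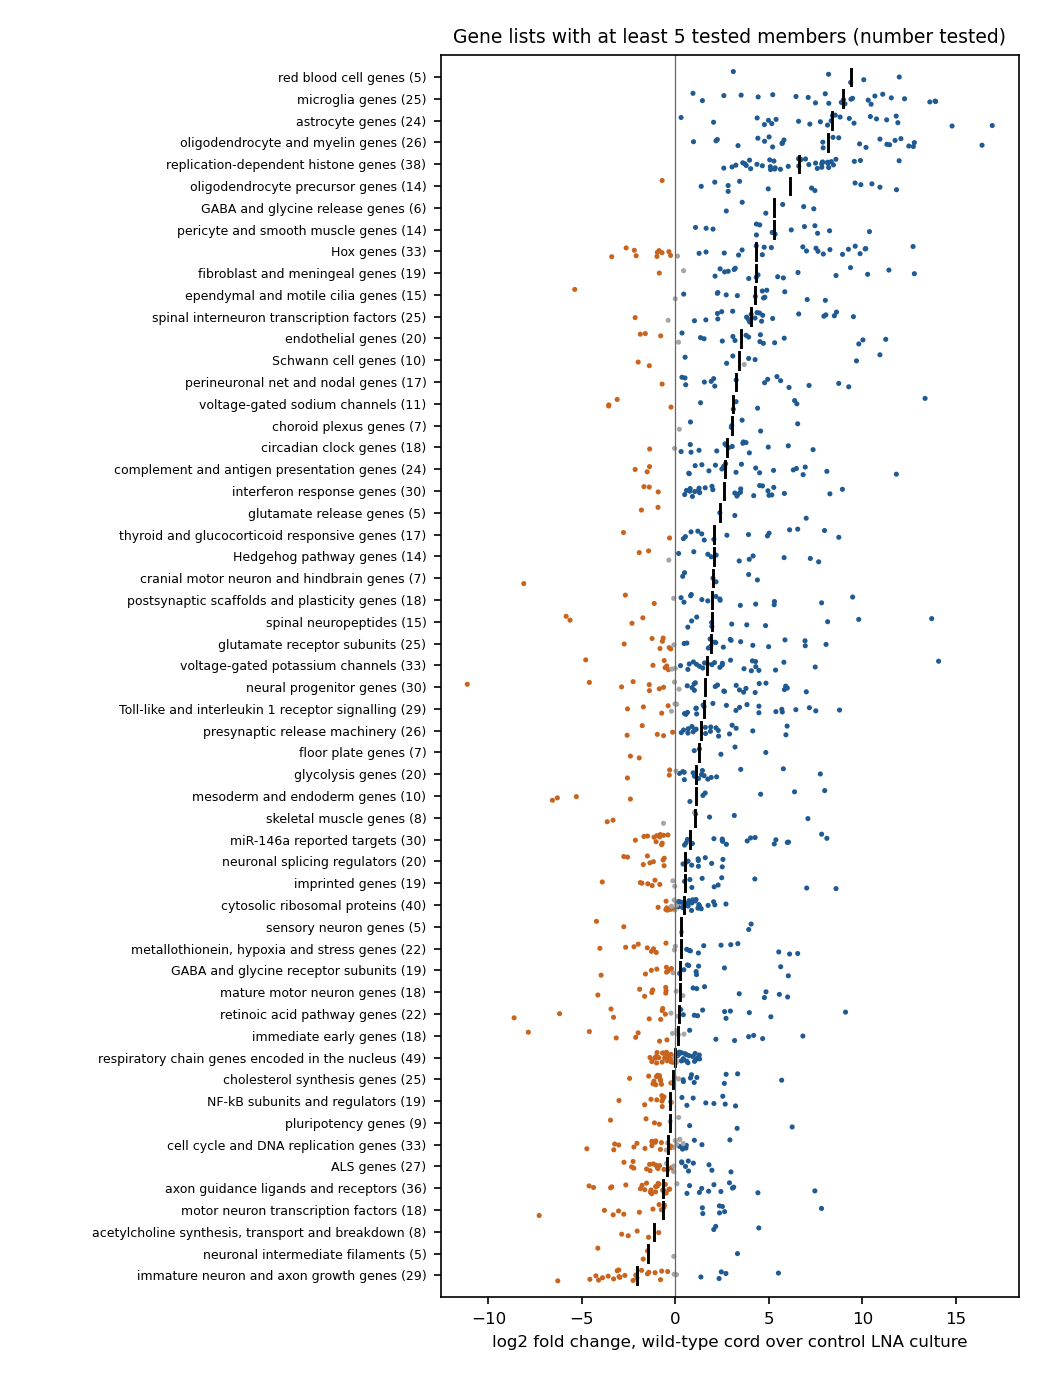
Each point is the log2 fold change (wild-type cord over control LNA culture) of 1 tested gene in its list (lists with at least 5 tested members), blue where called higher in cord, orange where called higher in culture and grey where not called. Black bars are list medians, which run from −2.06 for immature neuron and axon growth genes to 9.37 for red blood cell genes.

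Genes of synapses and excitability were mostly higher in cord, against a background of 45.1% of all tested genes. Called higher in cord were 21 of 26 presynaptic release genes (median 1.36), 15 of 18 postsynaptic scaffold genes (1.95), 17 of 25 glutamate receptor subunits (1.89), 25 of 33 voltage-gated potassium channels (1.72), 7 of 11 tested sodium channel genes (3.10) and 16 of 17 perineuronal net and nodal genes (3.25). GABA and glycine receptor subunits were more even, with 10 of 19 higher in cord and 8 in culture (median 0.23). Scn4b, an auxiliary sodium channel subunit of fast-spiking neurons (chromosome 9, 45138395 to 45154152), stood at 565, 587, 531 and 479 normalised CPM in cords and had 8 counts in the cultures together. Kcng4, a modifier subunit of potassium channels found in fast motor neurons, stood at 164, 187, 142 and 134 in cords and had 1 count in culture. Kcnc1, a channel for rapid repolarisation, had 5.36 (SE 0.11), the axonal channels Kcna1 and Kcna2 4.06 (SE 0.08) and 4.47 (SE 0.09), Hapln1, a link protein of perineuronal nets, 9.27 (SE 0.27), and the postsynaptic scaffold Shank3 4.29 (SE 0.10). Kcnv1, a silent potassium channel subunit, was higher in culture, at 40.9, 37.0 and 36.1 against 0.840, 1.57, 1.58 and 1.45 in cords.

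Related genes were also compared within a library by the log2 ratio of their TPM, a level per length, so that neither scaling nor depth enters the ratio. In 18 of 26 pairs the gene that was larger by mean log2 ratio differed between the materials. Among these 18, cord ratios lay on both sides of 1 for Grin3a over Grin2c (0.831 to 1.12) and Stmn2 over Stmn4 (0.954 to 1.07). In all 26 the ratios of cords and cultures did not overlap. Taken singly, 88.9% of all tested genes did not overlap, and the share over other pairs of genes was not computed. An exact two-sided permutation test of 4 against 3 libraries gave p = 0.0571 for every pair, which is the smallest p this design can give. Glycine receptors showed one of the widest shifts. The ratio of Glra2, the fetal subunit, to Glra1, the adult subunit of inhibitory synapses, was 17.1, 18.8 and 19.3 in cultures and 0.0126, 0.0126, 0.0242 and 0.0236 in cords. That of Scn3a, the embryonic sodium channel, to Scn1a was 14.2, 15.3 and 16.02 in cultures and 0.0555, 0.0536, 0.0644 and 0.0694 in cords. Mean log2 ratios in culture and cord were 1.21 and −2.13 for Scn2a over Scn8a, the channel of mature nodes, 2.03 and −1.03 for the NMDA receptor subunits Grin2b over Grin2a, and 2.01 and −1.55 for the scaffolds Dlg3 over Dlg4. They were 6.07 and −0.81 for the synaptobrevins Vamp2 over Vamp1, 3.47 and −1.33 for Ina over Nefh, and 1.04 and −3.72 for the growth cone proteins Dpysl3 over Dpysl2.

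Some pairs kept their larger member. Slc12a5, the chloride exporter, exceeded the importer Slc12a2 in every library, with Slc12a2 over Slc12a5 at 0.276, 0.301 and 0.268 in cultures and 0.169, 0.176, 0.143 and 0.111 in cords. Hk1, a hexokinase, likewise exceeded Hk2. The retinoic acid binding proteins went in opposite directions. Crabp1 exceeded Crabp2 in cords, with a mean log2 ratio of Crabp1 over Crabp2 of 6.0, and Crabp2 exceeded Crabp1 in cultures, where it was −5.42. Ptbp2, the neuronal splicing regulator, exceeded Ptbp1 in cultures, with ratios of Ptbp1 over Ptbp2 of 0.193 to 0.206, and the ratio was 1.15 to 1.27 in cords.

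**Figure D3:**
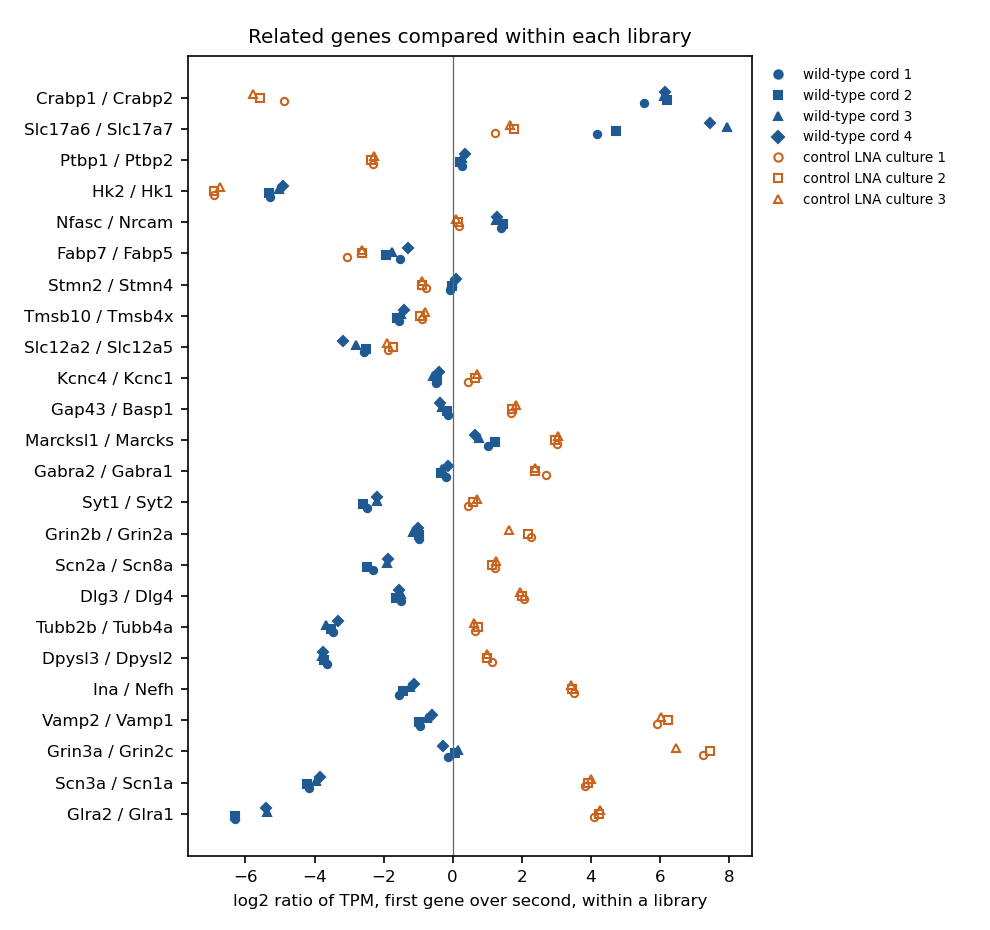
Log2 ratio of TPM of the first gene over the second within each library for 24 of the 26 pairs, with filled blue symbols for the 4 wild-type cords and open orange symbols for the 3 control LNA cultures. Points left and right of the line at 0 show which gene of the pair was larger. The 2 groups do not overlap in any of them, as in 88.9% of all tested genes taken singly.

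Developmental signalling genes separated as well. Igf2bp1, an RNA-binding protein of embryonic tissue (chromosome 11, 95957163 to 96005940), stood at 61.2, 55.6 and 59.3 normalised CPM in cultures and had 3 counts in the 4 cords together. Of 33 neural progenitor genes, 30 were tested, 20 were higher in cord and 8 in culture (median 1.60). The members higher in cord included Sox2 (4.27, SE 0.09), which astrocytes and ependyma also express, and Olig2 (7.0, SE 0.16), which oligodendrocytes also express. Of 33 cell cycle and replication genes, 17 were higher in culture and 8 in cord (median −0.42). Top2a, topoisomerase of dividing cells, stood at 4.71, 4.01 and 4.53 in cultures and 0.775, 0.610, 0.164 and 0.237 in cords (−3.30, SE 0.35), while Mki67, the proliferation marker, was not called, at 0.870 to 1.14 against 0.492 to 0.969 (−0.48, SE 0.31, adjusted p = 0.153). The pluripotency factors Pou5f1 and Nanog did not pass the filter, with 8 and 0 counts in culture. Crabp2 stood at 121, 108 and 114 in cultures and 0.203 to 0.328 in cords (−8.63, SE 0.11), and Aldh1a1, which makes retinoic acid, at 126 to 171 in cords and 0.148 to 0.385 in cultures (9.10, SE 0.19). Of 15 Hedgehog pathway genes, 14 were tested and 11 were higher in cord (median 2.05). The target gene Gli1 stood at 8.30, 8.39, 10.5 and 19.5 in cords and 0.0512, 0.0740 and 0.0385 in cultures, and the ligand Shh was higher in culture (−1.93, SE 0.10).

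A few genes of other organs were found in the cultures. Gkn1 (chromosome 6, 87345650 to 87350942), a secreted protein of stomach, stood at 23.4, 28.6 and 32.2 normalised CPM in cultures and had 0 counts in cords, at least 1190-fold higher in culture against 3 counts over the cord group. Prl8a8, a placental prolactin family gene, at 19.2 to 25.6, and Trap1a, at 19.5 to 20.6, also had 0 counts in cords, at least 986-fold and 853-fold higher in culture. Mmp10, a matrix protease, was at least 565-fold higher in culture. Crp, C-reactive protein, stood at 71.7 to 85.4 in cultures and had 3 counts in cords. These were among the 10 genes with the largest fold changes toward culture. Of 20 mesoderm and endoderm genes, 10 were tested, and 6 were higher in cord and 4 in culture. Gata4, a factor of heart and endoderm, at 5.33 to 7.19 in cultures and 0.0323 to 0.0985 in cords, had the largest difference toward culture (−6.58), whereas Afp, a defining gene of visceral endoderm and liver, had a mean of 0.0356 in cultures and did not pass the filter.

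Hox genes encode position along the body axis, with low paralogue numbers expressed toward the head and high numbers toward the tail. Of 39 Hox genes, 33 were tested, 22 were higher in cord and 10 in culture. Groups 4 and 5 were the most abundant in culture, with sums over the group of 68.1 to 80.1 and 118 to 149 normalised CPM, against 39.6 to 46.7 and 64.1 to 77.04 in cords. In groups 6 to 11 the sums were higher in every cord than in any culture. Group 8 summed to 282 to 344 in cords and 2.37 to 3.39 in cultures, group 9 to 151 to 184 and 0.851 to 0.964, and group 10 to 83.8 to 129.7 and 0.0555 to 0.289. Hoxb5 stood at 85.7, 70.7 and 61.6 in cultures and 38.9, 40.2, 33.1 and 36.9 in cords, whereas Hoxb8 (chromosome 11, 96281905 to 96285315) stood at 1.18, 1.57 and 1.00 in cultures and 239, 257, 230 and 265 in cords. In culture the sums fell from 24.9 to 31.5 in group 7 to those of group 8, while in cords group 8 held the largest sum of all groups.

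The cords were not alike in the most caudal groups. Hoxc11 stood at 2.62 and 1.54 normalised CPM in cords 1 and 2 and at 15.5 and 22.4 in cords 3 and 4. Hoxc12 stood at 0 and 0.0581 against 10.6 and 11.6, and Hoxc8 went the opposite way, at 36.8 and 41.6 against 17.1 and 12.7. Without cords 3 and 4, 21 of 32 tested Hox genes were higher in cord and 9 in culture. Without cords 1 and 2, the counts were 26 and 10 of 37. Whether the cords were cut at different levels was not tested.

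**Figure D4:**
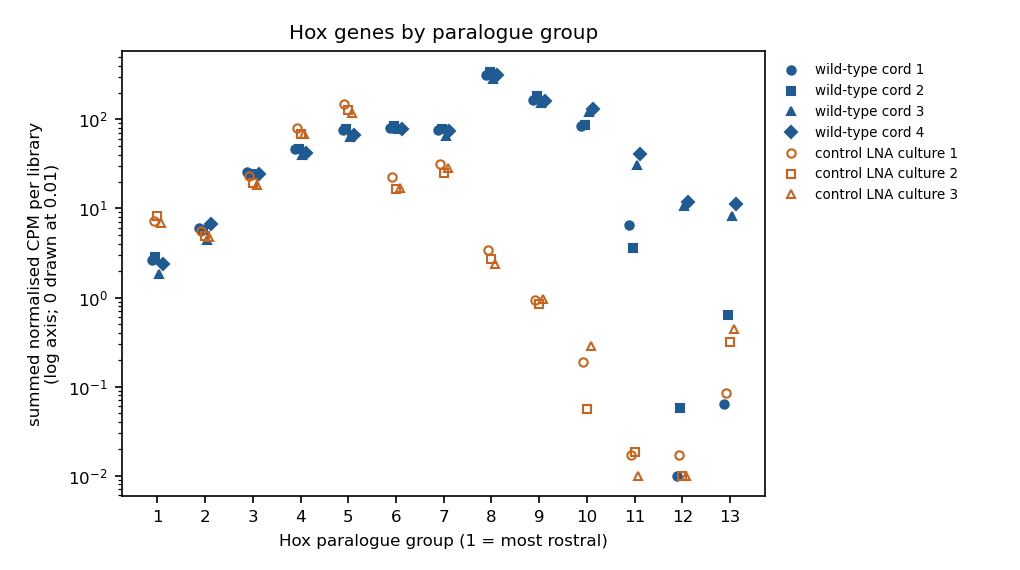
Summed normalised CPM (log axis, 0 drawn at 0.01) of the Hox genes of each paralogue group in each of the 7 libraries, filled blue for cords and open orange for cultures. In groups 6 to 11 every cord lies above every culture, and cords 3 and 4 (triangle and diamond) lie above cords 1 and 2 in groups 11 to 13.

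Genes of immune response and of injury went in different directions. Of 32 interferon response genes, 30 were tested and 27 were higher in cord (median 2.59), as were 21 of 24 tested complement and antigen presentation genes (2.66) and 22 of 29 tested genes of Toll-like and interleukin 1 receptor signalling (1.53). C4b, complement component C4, stood at 159, 168, 151 and 178 normalised CPM in cords and had 7 counts in culture, and Tlr9, a sensor of DNA, was at 3.49 to 5.32 and had 1 count in culture. The 25 microglia markers, all higher in cord, moved with these genes, with the summed levels given above, 8 of the 25 at 0 in culture and C1qb among those, and their part in the result was not tested. Of 19 NF-kB subunits and regulators, 8 were higher in cord and 10 in culture (median −0.26). Irak1 and Traf6, signalling proteins reported as miR-146a targets, had 0.49 (SE 0.06) and −0.73 (SE 0.08). Mir146 itself, counted over its annotated gene (chromosome 11, 43374397 to 43374461), had 0 counts in all 7 libraries. There 3 counts over a group are 0.0221 CPM in cords and 0.0178 CPM in cultures. The mature microRNA was not measured, so these counts do not give its level.

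Atf3, a transcription factor induced by axon injury and stress (chromosome 1, 191170296 to 191218039), stood at 239, 246 and 274 normalised CPM in cultures and at 0.420, 1.34, 1.31 and 1.22 in cords (−7.87, SE 0.16, adjusted p = 1.39e-12). Trib3, a target of the integrated stress response, had −4.04 (SE 0.19) and Cdkn1a, the p21 inhibitor of cell division, −2.78 (SE 0.10). Transfection was given to every culture and to no cord, so it cannot be told apart from the material, and its part was not tested. The metallothioneins went the other way, with Mt1 at 265, 298, 276 and 401 in cords and 4.33, 4.53 and 4.63 in cultures (6.11, SE 0.19). Of 22 metallothionein, hypoxia and stress genes, 11 were higher in cord and 9 in culture (median 0.30). Of 18 immediate early genes, 7 were higher in each material. Of 18 circadian clock genes, 16 were higher in cord (median 2.78), led by Per3, at 54.9, 48.5, 62.9 and 43.8 in cords and 0.426, 0.296 and 0.212 in cultures. Sod1, the superoxide dismutase mutated in some familial motor neuron disease, stood at 276, 280, 272 and 284 in cords and 33.5, 36.5 and 36.3 in cultures (2.97, SE 0.05), whereas Tardbp, which encodes TDP-43, was not called (−0.09, SE 0.07, adjusted p = 0.207). Of 27 ALS genes, 9 were higher in cord and 15 in culture (median −0.47).

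Energy and translation genes were mixed. Nuclear-encoded respiratory chain genes had a median of −0.02, which was 0.08 with DESeq2 size factors. Of these 49 genes, 21 were higher in cord and 22 in culture, near the backgrounds of 45.1% and 44.6%. The 13 genes of the mitochondrial chromosome were all higher in cord, from 1.20 to 5.91 on the log2 scale (median 2.89). Cytosolic ribosomal protein genes were higher in cord in 26 of 40 (median 0.47), and Rpl15 was higher in culture (−0.93, SE 0.05). Ldha, lactate dehydrogenase A, was higher in culture, at 544, 548 and 566 normalised CPM against 85.7, 85.6, 88.4 and 113 in cords, although 16 of 20 glycolysis genes were higher in cord (median 1.13). In 1869 tested genes (12.0%) the 95% interval of the fold change lay within 0.5 of 0 on the log2 scale. The most abundant by TPM included the chaperones Hspa8 (0.16, SE 0.05) and Hsp90ab1 (−0.09, SE 0.04), the ATP synthase subunit Atp5a1 (−0.13, SE 0.04) and the elongation factor Eef1a1 (−0.14, SE 0.04). Differences this small depended on the scaling, and the signs of Hsp90ab1, Nefm and Tardbp changed with it.

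Replication-dependent histone genes and several RNAs that carry no poly(A) tail were far more abundant in cord. Replication-dependent histone mRNAs end in a stem-loop in place of a poly(A) tail and are made when DNA is copied. Of 44 such genes, 38 were tested and all 38 were higher in cord, against a background of 45.1%, with a median of 6.59, or 5.47 with the 13 members at 0 in culture set at the floor. Hist1h4h stood at 46.6, 58.5, 53.3 and 61.7 normalised CPM in cords and had 9 counts in culture, and Hist1h4f stood at 11.1, 11.8, 11.1 and 13.6 and had 0, at least 664-fold higher in cord. Of the cell cycle and replication genes above, fewer were higher in cord (8 of 33) than in culture (17). The stem-loops of 4 genes in the annotated transcripts are given because the motif marks the mRNAs that lack a tail, with the stem-loop in capitals, on the transcript strand and in GRCm38 coordinates.
Hist1h4h, chr13:23531453-23531478, plus strand: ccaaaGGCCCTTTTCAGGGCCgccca
Hist1h4f, chr13:23551286-23551311, minus strand: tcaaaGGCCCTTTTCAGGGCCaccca
Hist1h4b, chr13:23757361-23757386, plus strand: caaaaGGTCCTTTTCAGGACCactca
Hist2h2ac, chr3:96220413-96220438, minus strand: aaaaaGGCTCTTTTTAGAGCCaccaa

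The histone stem-loop motif, which keeps the letters that the capitals above share and allows any base where they differ, was searched on the transcript strand in the last 100 bases of GENCODE M21 transcripts and occurred in 23 of 21897 protein-coding genes (0.105%). Of these, 22 were histone genes and 1 was Rab12, a small GTPase. Of the 44 listed histone genes, 13 held the motif in that window, and in the rest these letters were not found there. Among the 16 of these 23 genes that were tested, 15 were at least 2-fold higher in cord, against 30.9% of all tested genes. These 15 were all histone genes, and Rab12 was higher in culture (−0.54, SE 0.06). The motif was drawn from 4 listed histone genes that were higher in cord, and its hits overlap that list. The count is therefore no separate support for the result of the list. Hist1h4b had 0 counts in culture and Hist2h2ac had 1. The variant histone genes H3f3a, H3f3b and H2afz, whose mRNAs carry a tail, were chosen after their values were seen and stood higher in culture. H3f3a was at 291 to 296 normalised CPM against 55.1 to 61.6 in cords, H3f3b at 547 to 566 against 77.4 to 91.8, and H2afz at 113 to 120 against 62.4 to 67.9. No list of variant histone genes was made. Histone genes have near-identical copies, so the split between single copies is uncertain.

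Abundant noncoding RNAs without a tail divided the same way. Rn7sk, the nuclear RNA that holds back the elongation factor P-TEFb, stood at 8701 to 12450 CPM in cords and 1.05 to 1.64 in cultures. The signal recognition particle RNA Rn7s2 stood at 771 to 1000.2 against 0.347 to 0.470, and the Cajal body RNA Scarna2 at 165 to 205 against 0 to 0.145. The RNase P RNA Rpph1 was low, at 0.277 to 0.775 in cords and 0 counts in culture, and Rmrp and Terc had 0 counts in all 7 libraries. Malat1, a nuclear RNA whose end is a triple helix, stood at 6361, 3520, 6019 and 5522 in cords and 80.6, 73.5 and 68.9 in cultures, and Neat1 at 212 to 370 against 2.07 to 2.33. Meg3, a polyadenylated noncoding RNA, differed far less, at 1343 to 2411 against 1062 to 1239, a ratio of means of 1.80. Snhg11, a host transcript of small nucleolar RNAs that the annotation lists as protein-coding, stood at 448 to 852 CPM against 884 to 991 and was not called by edgeR (−0.34, SE 0.22, adjusted p = 0.181). Without cord 2, its lowest library, Snhg11 was called at −0.17 (adjusted p = 0.00803). The submitters' labels name the same kits for RNA extraction and for removal of ribosomal RNA in cords and cultures. Any difference in handling coincides with the material and cannot be told apart from it.

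**Figure D5:**
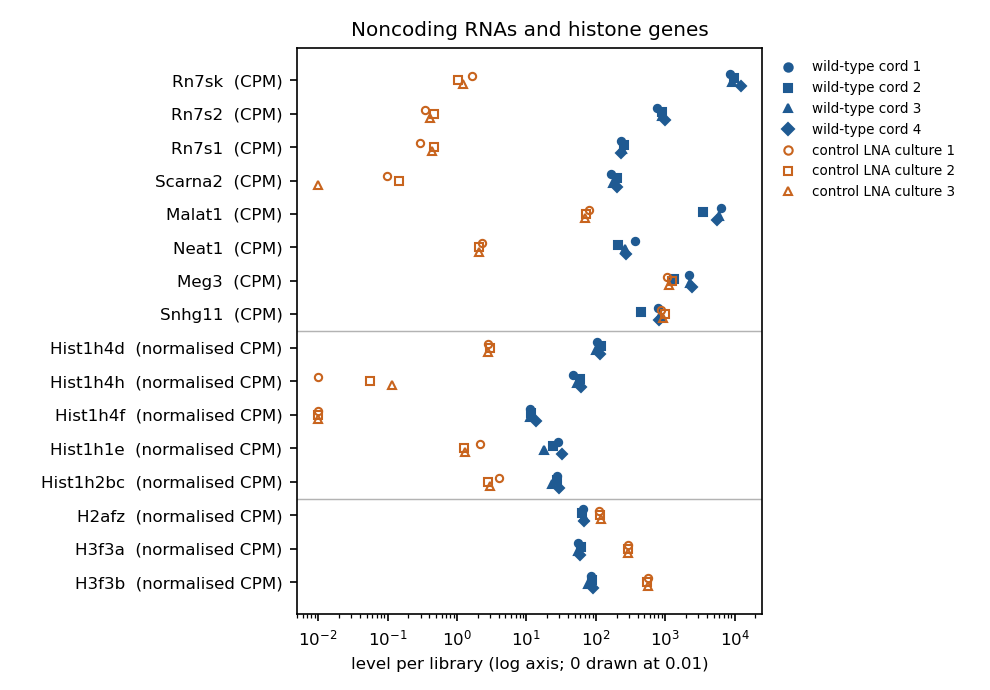
Level in each of the 7 libraries (log axis, 0 drawn at 0.01) of noncoding RNAs in CPM (top), replication-dependent histone genes (middle) and variant histone genes (bottom) in normalised CPM, filled blue for cords and open orange for cultures. The plotted RNAs without a poly(A) tail are higher in every cord than in any culture, and Meg3 and Snhg11 differ by much less. The plotted variant histone genes, which were chosen after their values were seen, are higher in every culture.

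The contrast was repeated in libraries it does not use, the 9 cords labelled miR-146a KO against the 3 cultures given the miR-146a LNA. There 13868 of 16175 tested genes were called (85.7%). Of the 13937 genes called in the wild-type contrast and tested in the repeat, 98.1% had the same sign and 92.04% also passed the test. In 37 genes both contrasts were called with opposite signs, among them the respiratory chain genes Ndufa4, Cox6c and Atp5o (chosen after their values were seen), whose fold changes were 0.43, 0.15 and 0.21 here and −0.32, −0.49 and −0.47 in the repeat. Cox6c and Atp5o were not called without culture 1 (adjusted p = 0.0937 and 0.0643). The same held in a fit of all 19 libraries (0.420 and 0.267) and with all gene types (0.513 and 0.182). Cox6c was also not called without culture 3 (0.0721) and with no filter on low counts (0.0506). Isl1 had −7.29 and −7.39, Mbp 7.90 and 7.58, Scn4b 13.36 and 11.64, Glra2 −3.97 and −3.91, and Gap43 −4.11 and −3.98. Atf3 had −7.87 and −4.02, and Chodl 4.76 and 1.90. Genotype and LNA differ between the repeat and the wild-type contrast, and whether these account for the differences in value was not tested.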

How the data were processed

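RNA from spinal cords and motor neuron cultures was sequenced as paired reads after removal of ribosomal RNA with RNase H and priming with random hexamers, per the submitters' design notes and the labels' protocols. Per the submitters' processing notes, STAR 2.7.9a1 and featureCounts were used with GRCm38. The strand setting is not given in the sources used here. Each deposited file holds counts per gene with CPM, FPKM and TPM values that the authors computed. The deposited counts carried every test, the deposited TPM gave levels per length, and the authors' CPM and FPKM were not used for any test. CPM for noncoding RNAs was computed from the deposited counts.

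Protein-coding genes passing filterByExpr (minimum count 10) were fitted with edgeR 4.0.16 in R 4.3.3 (TMM scaling, quasi-likelihood test, Benjamini-Hochberg adjustment over 15563 genes, threshold 0.05), with a second test against a fold of 2. Intervals are 95%. Adjusted p-values in the report are from edgeR. DESeq2 1.42.0 and limma 3.58.1 served as alternatives. The samples were grouped by label, and the members and gene lists were chosen with earlier results of these data known. Genes are named by a rule, which takes the largest fold changes, the most abundant genes past 8-fold in each direction and among near-equal genes, the first 4 members and the extremes of each list, and the genes of the 26 pairs. Hox genes other than the first of the list, histone genes other than Hist1h4f, Rab12, Snhg11 and the genes marked so in the text were chosen after their values were seen. Libraries of a group differed by more than sampling noise (chi-square per degree of freedom 6.78 to 19.1), and none was merged. On data simulated at these library sizes, 15366 genes were tested. The test recovered 100% of 99 genes with a log2 change of 1 and of 99 with 2, and 4.35% of its calls were false. The simulation gave every gene 1 common dispersion and left most genes unchanged, whereas 89.7% of genes were called in the real data. Its rates therefore cannot be carried over to this contrast. Transcript ends came from GENCODE M21, which matched 99.5% of the 55487 genes in the files. Some genes are not reported here.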

Additional observations from a re-analysis of the deposited data

Results flagged for a closer look

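In 16 of the 148 genes named above, 1 of the 4 cords lay far from the other 3 by Dixon's test, which flags about 1 in 20 groups by chance. Cord 4 was apart in 6 of them. In normalised CPM it had 287 of Aqp4 against 396 to 415 in the other cords, 12.8 of Dcn against 5.36 to 5.84 and 113 of Ldha against 85.6 to 88.4. It also had 71.4 of Pax2 against 62.2 to 63.0, 28.6 of Prx against 0.435 to 0.886, and 192 of Shank3 against 156 to 159. Cord 1 had 50.5 of Ddx3y against 0, 0.420 of Atf3 against 1.22 to 1.34, 0.840 of Kcnv1 against 1.45 to 1.58, 71.3 of Rpl15 against 76.2 to 76.5, and 0 of Igf2bp1 against 0.0290 to 0.0328. Cord 3 had 39.0 of Gpr17 against at most 31.5, 5.32 of Tlr9 against 3.49 to 3.57, and 0.0656 of Pou5f1 against 0. Cord 2 had 0 of Afp against 0.119 to 0.131 and 480 of Snhg11 against 822 to 885. The values of Igf2bp1, Pou5f1 and Afp rest on a few counts.

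The wild-type contrast and its repeat (cords labelled miR-146a KO against cultures given the miR-146a LNA) differed in 416 of 16343 genes by an interaction term in edgeR fitted over all 19 libraries. Among the genes named above, the difference in log2 fold change (wild-type contrast minus repeat) was 2.78 for Chodl (adjusted p = 0.00193), 2.93 for Hapln1 (0.00438), −0.54 for Kcna1 (0.0349), 0.53 for Nefl (0.0413) and 0.60 for Sparcl1 (0.0346).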

How the results depend on the processing

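The counts of genes higher in cord and in culture moved by less than 1.5 times under every alternative run. They were 7313 and 6608 with DESeq2 size factors, 7312 and 6599 with DESeq2, 7057 and 6876 with library size alone, 7073 and 7008 with limma, 6860 and 6880 in a fit of all 19 libraries, 7519 and 7231 with no filter, and 9472 and 8543 with all gene types. Leaving out 1 library gave 6890 to 7014 and 6871 to 6935. The median of all genes shifted by 0.13 with all gene types and by 0.11 with no filter. Small differences changed sign: with DESeq2 size factors and with DESeq2, Dlg3, Tardbp, Hsp90ab1 and Nefm stood at 0.0043 and 0.0042, 0.0038 and 0.0039, 0.00072 and 0.00072, and 0.011 and 0.011, and the nuclear respiratory chain median at 0.079 in both. The median of neutrophil and monocyte genes (3 tested, −1.39) was 2.37 in the fit of all libraries, 2.20 with no filter, and 0.68, 0.96 and 0.86 without cultures 1, 2 and 3 (−1.99 to 0.96 over all libraries left out in turn). That of sensory neuron genes (5 tested, 0.32) was −0.94 in the fit of all libraries and −0.10 without culture 3 (−0.10 to 1.16 over all). The cause was not tested. Of 2001 comparisons of a named gene with an alternative, 1950 kept the direction and the call. List medians moved more often. In 552 comparisons they stayed within the spread between libraries of a group, and in 251, over 55 lists, they moved by more. In 9 more, over 3 lists, they also changed sign. The number of lists with a positive median was 46 and at most 48 under the alternatives. Leaving out cords 1 and 2, or 3 and 4, was chosen after seeing the data. No paired analysis was possible because the cords come from animals and the cultures from 1 cell line. The cords also carry no replicate numbers in their labels. With 4 against 3 libraries, an exact permutation test of a single value cannot go below 0.0571.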
